A study of Mus musculus with 21 samples.

Results

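The 9 genes described here encode amino acid transporters of the SLC7 family and 2 partners, the heavy chain gene Slc3a2 and the neutral amino acid exchanger gene Slc1a5. They were chosen by symbol, by way of the Ensembl identifier of each row, and all 9 were found among the 55487 genes of the count table. All 9 were among the 14741 genes that passed the filter on low counts. Slc7a2 had the lowest counts of the 9, with 15 to 67 counts per LPS library and 0 to 18 counts per saline library. RNA was measured by bulk RNA sequencing of microglia, the resident macrophages of the brain, sorted from the striatum as live cells positive for CD11b and P2RY12 with low CD45. The mice were males of 8 to 10 weeks, the offspring of mothers whose immune system was activated while pregnant (maternal immune activation, MIA) or of control mothers. Mice had received LPS (lipopolysaccharide, a component of the bacterial cell wall), at 4500 endotoxin units per gram, or saline into the peritoneum 18 hours earlier. The groups were MIA offspring given LPS (4 libraries), MIA offspring given saline (6 libraries), control offspring given LPS (5 libraries) and control offspring given saline (6 libraries). The labels do not give the agent used on the mothers, the mouse strain or whether a library held 1 mouse or a pool, and the p-values cover only the spread among libraries, which may be partly technical.

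SLC7 proteins are of 2 kinds. The cationic amino acid transporters, here SLC7A1 and SLC7A2, work alone and bring arginine, lysine and ornithine into the cell. The light chains, here SLC7A5, SLC7A6, SLC7A7, SLC7A8 and SLC7A11, reach the plasma membrane bound by a disulfide bridge to the heavy chain SLC3A2 (CD98, 4F2hc) and exchange an amino acid inside for one outside. In macrophages, arginine feeds nitric oxide and polyamine synthesis, and cystine taken up by SLC7A11 in exchange for glutamate is reduced to cysteine for glutathione.

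The promoter of Slc7a11 is known from work in mouse cells as a target of ATF4, through amino acid response elements, and of NRF2, through antioxidant response elements. The 250 bases before the annotated start of 3 members are shown because Slc7a11 had the largest increase after LPS of the 9, Slc3a2 encodes the heavy chain that all 5 light chains share, and Slc7a8 was the member that fell. Sequences are from RefSeq on GRCm38.p6, on the gene's own strand, with capitals marking matches to the amino acid response element core TGATGNAA on either strand.
Slc7a11 (chr3:50443614-50443863, minus strand): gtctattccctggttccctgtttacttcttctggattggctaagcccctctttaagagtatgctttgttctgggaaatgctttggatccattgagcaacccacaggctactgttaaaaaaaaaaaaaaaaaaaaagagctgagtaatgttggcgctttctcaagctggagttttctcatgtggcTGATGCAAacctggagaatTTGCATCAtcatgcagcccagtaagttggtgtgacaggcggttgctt
Slc3a2 (chr19:8713898-8714147, minus strand): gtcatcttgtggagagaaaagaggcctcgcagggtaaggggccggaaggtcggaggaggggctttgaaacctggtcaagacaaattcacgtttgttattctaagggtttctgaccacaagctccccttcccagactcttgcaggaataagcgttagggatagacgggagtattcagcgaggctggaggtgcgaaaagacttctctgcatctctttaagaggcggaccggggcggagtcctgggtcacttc
Slc7a8 (chr14:54781887-54782136, minus strand): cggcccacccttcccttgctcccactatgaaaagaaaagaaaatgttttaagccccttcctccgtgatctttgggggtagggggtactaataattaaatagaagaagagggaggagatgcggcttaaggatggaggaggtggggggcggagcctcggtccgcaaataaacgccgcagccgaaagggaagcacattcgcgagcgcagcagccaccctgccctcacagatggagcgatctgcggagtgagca
The Slc7a11 window held 2 matches, TGATGCAA at 66 to 59 bases before the start and TTGCATCA, the same core on the opposite strand, at 47 to 40 bases before the start. The Slc3a2 and Slc7a8 windows held no match to this core or to the antioxidant response element core TGACNNNGC, also searched on both strands, and the Slc7a11 window held no match to TGACNNNGC either. The core TGATGNAA was found in 3.45% of the 32851 windows of this length in the table, and TGACNNNGC in 10.2%. The table held windows for 6 of the 9 members. The only Slc3a2 window lies inside the annotated span of the gene (8706882 to 8723369). The bases before the outermost start of Slc3a2 were therefore not searched. Of the other 3 members with a window, Slc7a1 and Slc7a6 each had 1 match to TGACNNNGC in 1 of 2 windows, and Slc7a7 had 1 match to TGATGNAA in each of 2 of its 5 windows. A match is a run of letters and was not tested as a binding site.

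Total counts, in units of 1e+06 (M), ran from 9.85 to 19.0 M in the 19 libraries that were compared. A single gene, CT010467.1, held 43.0% to 53.8% of the counts in these libraries, and CPM is over totals that include it. The library titled as excluded by the submitters, MIA saline replicate 6, had 5.29 M and was left out. MIA LPS replicate 4 was the single library of batch 2, had counts in 12285 genes against at least 18035 in the 19 others, and was taken up by the batch term of the model, so that 3 MIA LPS, 5 MIA saline, 5 control LPS and 6 control saline libraries were compared. All 10 microglia markers were detected in each group, and their summed level was lower after LPS, with P2ry12, the gene of the sorting marker, at 203 against 2050 CPM (counts per 1e+06 counts) in MIA offspring and at 188 against 1974 CPM in control offspring. Of 7 tested monocyte markers 6 were higher after LPS in each kind of offspring, with a summed level of 37.6 to 55.5 CPM after LPS against 3.15 to 6.80 CPM after saline in MIA offspring, and of 43.4 to 79.0 CPM against 4.01 to 5.99 CPM in control offspring. Among the defining monocyte markers, Ly6c2 and Chil3 were at 0 in all MIA saline libraries and Ace in all control saline libraries. Of 9 tested neutrophil markers 8 were higher after LPS in MIA offspring and 7 in control offspring, with Retnlg and Mmp8 at 0 in all saline libraries of both kinds. The summed neutrophil level, which includes Csf3r, a gene that fell, was 88.4 to 184 CPM in MIA LPS libraries against 171 to 214 CPM in MIA saline libraries, and 124 to 180 CPM in control LPS libraries against 164 to 209 CPM in control saline libraries. The summed level of 8 border-associated macrophage markers was 53.0 to 169 CPM in MIA LPS libraries against 18.2 to 35.5 CPM in MIA saline libraries, and 105 to 192 CPM in control LPS libraries against 23.4 to 59.6 CPM in control saline libraries, with 2 of 7 tested markers higher in both, 2 lower in MIA and 1 lower in control offspring, and with Lyve1 and Cd209f at 0 in MIA LPS libraries. The part of these cell type markers in the changes described here was not tested. In bulk libraries, fewer cells of a type and less RNA per cell cannot be told apart.

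After LPS, 7 of the 9 transporter genes were higher and 1 was lower in both MIA and control offspring (edgeR quasi-likelihood test, Benjamini-Hochberg adjusted p under 0.05 over all genes tested). Slc7a11, Slc7a1, Slc7a2, Slc7a5, Slc7a6, Slc3a2 and Slc1a5 rose, Slc7a8 fell, and Slc7a7 did not pass the test. The call of Slc7a2 in MIA offspring was lost under 6 of 29 alternatives, which leaves 6 genes higher there. Among all genes tested, 20.8% were higher and 18.3% lower in MIA offspring (39.1% in either direction), and 23.3% were higher and 21.3% lower in control offspring (44.6% in either direction). The LPS and saline libraries did not overlap for 8 of the 9 genes in both kinds of offspring, against 36.5% of all genes in MIA offspring and 28.9% in control offspring. The median log2 fold change of the 9 genes was 1.98 in MIA offspring and 1.36 in control offspring, against 0.018 and -0.003 over all genes tested.

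**Figure D1:**
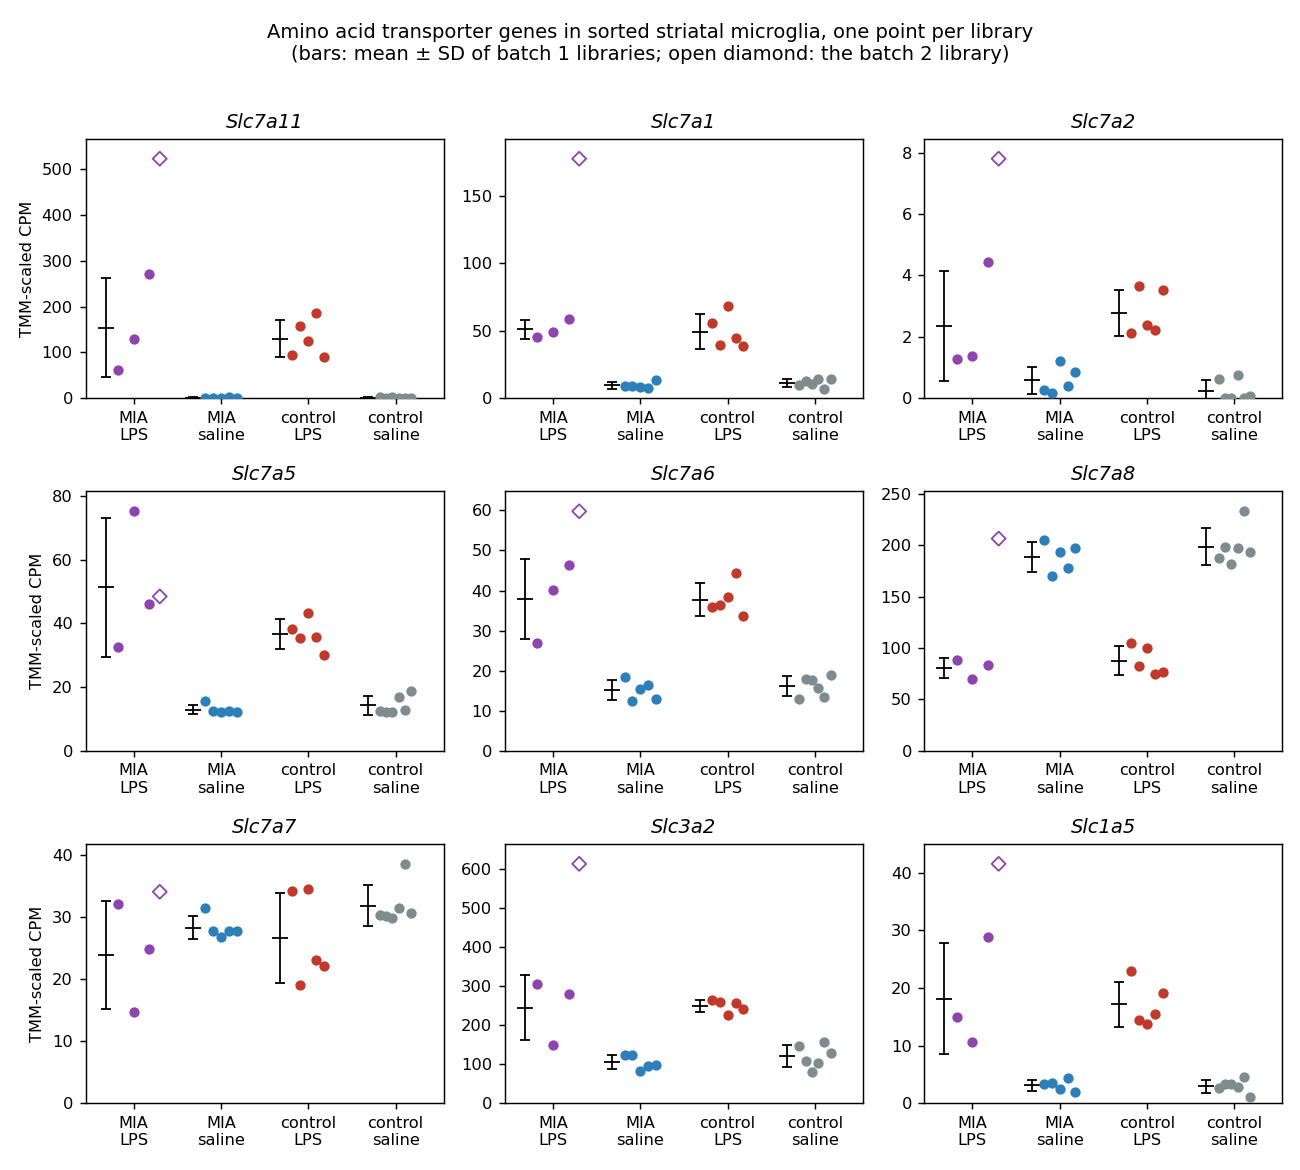
Levels of the 9 transporter genes in each library, in CPM scaled by the trimmed mean of M values (TMM), by group on the horizontal axis. Points are libraries, bars are the mean ± SD of batch 1 libraries, and the open diamond is the batch 2 library. Among batch 1 libraries and within each kind of offspring, the LPS libraries lie above the saline libraries for 7 genes and below them for Slc7a8, while Slc7a7 overlaps.

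Slc7a11, the cystine and glutamate exchanger xCT, lies on chromosome 3 (GRCm38, 49892526 to 50443614, minus strand). It was at 61.4, 129 and 272 CPM in MIA LPS libraries and at 1.14, 1.37, 1.35, 2.34 and 1.47 CPM in MIA saline libraries. It was at 93.3, 157, 125, 185 and 90.4 CPM in control LPS libraries, while the lowest, median and highest control saline libraries had 0.700, 1.503 and 2.78 CPM. Each LPS library was above every saline library, and MIA LPS libraries spread more widely than control LPS libraries. The log2 fold change was 6.63 ± 0.44 (SE) in MIA offspring (adjusted p = 1.36e-09, a 99.0-fold increase with a 95% interval of 51.8 to 189) and 6.38 ± 0.39 in control offspring (adjusted p = 2.25e-10, 83.4-fold, interval 47.1 to 148). Without MIA LPS replicate 3, the highest of its group, the value in MIA offspring was 5.93. Saline libraries held 12 to 40 Slc7a11 counts each, so that the saline level, and with it the fold, rests on few counts.

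Slc7a1, the widely expressed arginine transporter CAT1 (chromosome 5, 148327410 to 148399904, minus strand), was at 45.2, 49.4 and 58.8 CPM in MIA LPS libraries and at 9.20, 8.76, 8.71, 7.57 and 13.9 CPM in MIA saline libraries. In control offspring it was at 55.6, 39.1, 68.6, 44.8 and 38.5 CPM after LPS, against a lowest, median and highest of 6.59, 11.8 and 14.1 CPM after saline. It rose by 2.41 ± 0.22 on the log2 scale in MIA offspring (adjusted p = 3.84e-09) and by 2.12 ± 0.19 in control offspring (adjusted p = 1.28e-09), with no overlap between LPS and saline libraries. Slc7a2, the arginine transporter CAT2 that activated macrophages use for nitric oxide synthesis, lies on chromosome 8 (40862396 to 40922308, plus strand). It was far lower, at 1.27, 1.37 and 4.42 CPM in MIA LPS libraries against 0.263, 0.161, 1.21, 0.413 and 0.866 CPM in MIA saline libraries. Control LPS libraries had 2.11, 3.67, 2.39, 2.21 and 3.53 CPM, while 3 of 6 control saline libraries had no count and the highest had 0.768 CPM. The LPS and saline ranges lay apart in both kinds of offspring, though in MIA offspring the lowest LPS library was only just above the highest saline library. The log2 fold change of Slc7a2 was 1.98 ± 0.74 in MIA offspring (adjusted p = 0.0366) and 3.47 ± 0.69 in control offspring (adjusted p = 0.000227). Its call in MIA offspring was lost without MIA LPS replicate 3 (1.14, adjusted p = 0.332) and without each of MIA saline replicates 1, 2 and 4 (adjusted p = 0.0761, 0.0765 and 0.0725). It was also lost with no filter on low counts (adjusted p = 0.0782). Slc7a2 shares exon bases with Gm26584, a long noncoding RNA gene on the other strand, and whether reads were counted by strand is not given in the sources used here.

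Slc7a5, the leucine and large neutral amino acid transporter LAT1 (chromosome 8, 121881150 to 121907694, minus strand), was at 32.7, 75.2 and 46.0 CPM in MIA LPS libraries and at 15.5, 12.5, 12.4, 12.4 and 12.1 CPM in MIA saline libraries. Control LPS libraries had 38.4, 35.6, 43.3, 35.8 and 30.1 CPM, and the lowest, median and highest control saline libraries had 12.1, 12.7 and 18.9 CPM. MIA LPS replicate 2 stood above all others, and no LPS library overlapped the saline range. Slc7a5 rose by 1.99 ± 0.20 on the log2 scale in MIA offspring (adjusted p = 1.22e-08) and by 1.36 ± 0.17 in control offspring (adjusted p = 2.56e-07). Without MIA LPS replicate 2 the increase in MIA offspring was 1.61. MIA LPS replicate 2 also had the highest summed astrocyte and oligodendrocyte markers of the LPS libraries compared (234 and 95.4 CPM, against at most 146 and 53.6 CPM in control LPS libraries). In saline libraries the astrocyte sum was 160 to 287 CPM in MIA and 155 to 308 CPM in control offspring. The oligodendrocyte sum there was 41.3 to 84.6 and 41.6 to 57.9 CPM. The part of those cells in the Slc7a5 level of that LPS library was not tested.

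Slc7a8, the light chain LAT2, which exchanges large and small neutral amino acids, lies on chromosome 14 (54722209 to 54781946, minus strand) and was the member that moved the other way. It was at 88.5, 70.2 and 83.4 CPM in MIA LPS libraries and at 206, 170.0, 194, 178 and 197 CPM in MIA saline libraries. Control LPS libraries had 105, 82.4, 99.7, 74.4 and 76.6 CPM, against a lowest, median and highest of 182, 196 and 233 CPM in control saline libraries. Each LPS library compared was below each saline library. Slc7a8 fell by 1.23 on the log2 scale in MIA offspring (SE 0.14, adjusted p = 1.56e-07) and by 1.18 in control offspring (SE 0.12, adjusted p = 5.75e-09). Slc7a8 and Slc7a5, both light chains for large neutral amino acids, changed in opposite directions.

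Slc1a5, which encodes the sodium-dependent exchanger of glutamine and other small neutral amino acids ASCT2 (chromosome 7, 16781340 to 16798274, plus strand), was at 15.0, 10.6 and 28.9 CPM in MIA LPS libraries and at 3.42, 3.46, 2.56, 4.47 and 1.93 CPM in MIA saline libraries. Control LPS libraries had 23.0, 14.4, 13.8, 15.5 and 19.1 CPM, and the lowest, median and highest control saline libraries had 1.08, 3.05 and 4.55 CPM. The 2 conditions lay apart in both kinds of offspring, and the increase was 2.52 ± 0.32 on the log2 scale in MIA offspring (adjusted p = 8.9e-07) and 2.53 ± 0.28 in control offspring (adjusted p = 6.07e-08).

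The 2 remaining light chains exchange cationic for neutral amino acids together with sodium. Slc7a6, which encodes y+LAT2 (chromosome 8, 106168857 to 106198706, plus strand), rose by 1.32 ± 0.17 in MIA offspring (adjusted p = 7.66e-07) and by 1.23 ± 0.15 in control offspring (adjusted p = 1.2e-07). Its libraries ran from 27.0 to 46.4 CPM in MIA LPS against 12.5 to 18.5 CPM in MIA saline, and from 33.7 to 44.4 CPM in control LPS against 13.0 to 19.0 CPM in control saline. Slc7a7, which encodes y+LAT1 (chromosome 14, 54369442 to 54417780, minus strand), was at 32.1, 14.8 and 24.8 CPM in MIA LPS libraries against 26.7 to 31.5 CPM in MIA saline libraries, and at 34.2, 19.1, 34.6, 23.1 and 22.1 CPM in control LPS libraries against 29.8 to 38.6 CPM in control saline libraries. LPS libraries of Slc7a7 lay on both sides of the saline libraries in MIA offspring, and 3 of 5 lay below them in control offspring. Its log2 fold change was -0.25 (95% interval -0.66 to 0.17, adjusted p = 0.363) in MIA offspring and -0.26 (-0.60 to 0.080, adjusted p = 0.21) in control offspring. Slc7a7 shares exon bases with Oxa1l on the other strand, and its estimated count was not whole in 20 of 21 libraries.

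Slc3a2, the heavy chain CD98 (chromosome 19, 8706882 to 8723369, minus strand), was at 306, 150 and 280 CPM in MIA LPS libraries and at 125, 123, 83.4, 95.5 and 99.4 CPM in MIA saline libraries. Control LPS libraries had 265, 259, 227, 256 and 242 CPM, against a lowest, median and highest of 81.0, 119 and 157 CPM in control saline libraries. MIA LPS replicate 2 was the lowest LPS library and, at 150 CPM, lay within the control saline range. Slc3a2 rose by 1.22 ± 0.20 on the log2 scale in MIA offspring (adjusted p = 2.27e-05) and by 1.04 ± 0.17 in control offspring (adjusted p = 1.46e-05).

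**Figure D2:**
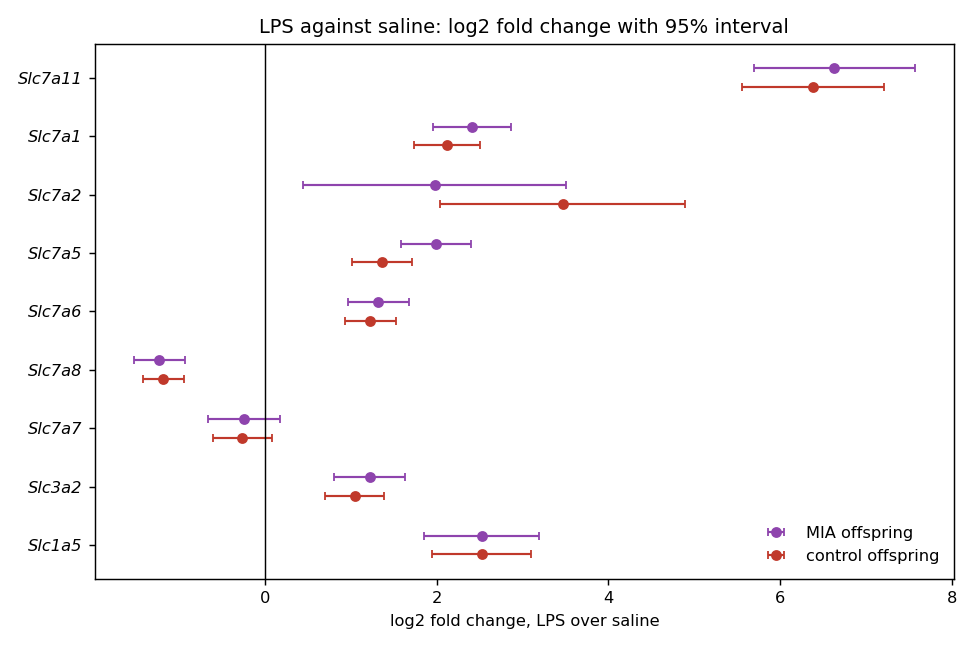
Log2 fold change of LPS over saline for each transporter gene, with the 95% interval, in MIA and control offspring. The intervals lie above 0 for 7 genes, below 0 for Slc7a8 and across 0 for Slc7a7, and Slc7a11 is farthest from 0 in both.

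Per kilobase of exon, the heavy chain and Slc7a8 were the highest of the 9 after saline. Slc7a8 was at 37.7 ± 2.9 and Slc3a2 at 29.8 ± 5.1 CPM per kilobase in MIA saline libraries (mean ± SD, n = 5), and at 39.7 ± 3.6 and 34.3 ± 8.2 in control saline libraries (n = 6), with ranges that overlapped in both groups. Slc7a7 was next at 8.54 and 9.61 CPM per kilobase in MIA and control saline libraries, then Slc7a5 and Slc7a6, whose ranges overlapped, then Slc7a1 and Slc1a5, which also overlapped, and last Slc7a11 and Slc7a2, whose ranges overlapped as well. After LPS, Slc3a2 was first at 69.5 ± 23.7 CPM per kilobase in MIA libraries (n = 3) and 70.8 ± 4.3 in control libraries (n = 5), clear of Slc7a8 at 16.1 and 17.5. Slc7a5, Slc7a11, Slc7a6, Slc7a7, Slc7a1 and Slc1a5 followed with ranges that overlapped from one to the next, in MIA libraries from Slc7a8 on, and Slc7a2 stayed last, at 0.258 and 0.305 CPM per kilobase in MIA and control libraries. When levels were divided by the length of the principal isoform, a choice made after seeing the data, Slc3a2 came before Slc7a8 after saline in both kinds of offspring, again with overlapping ranges. With that length, Slc7a6 came before Slc7a5 after saline and Slc7a11 before Slc7a5 after LPS, in both kinds of offspring. In control LPS libraries Slc7a8 then overlapped the next gene, which it did not per kilobase of exon. Slc3a2 stayed first after LPS and Slc7a2 last.

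The mix of light chain transcripts differed between LPS and saline libraries. Of the summed CPM per kilobase of the 5 light chains, Slc7a8 made up 29.3% ± 7.6 in MIA LPS libraries against 70.9% ± 1.6 in MIA saline libraries, and 33.1% ± 3.7 in control LPS libraries against 69.9% ± 1.6 in control saline libraries (mean ± SD). Slc7a11 made up 18.4% ± 10.2 against 0.209% ± 0.071 in MIA offspring and 17.7% ± 5.3 against 0.203% ± 0.102 in control offspring. Slc7a5 made up 24.5% ± 9.7 in MIA LPS libraries, with the highest at 35.7% in replicate 2, and 18.6% ± 0.7 in control LPS libraries, against 6.56% ± 0.45 in MIA saline libraries and 6.79% ± 1.36 in control saline libraries. The LPS and saline ranges of these 3 shares did not overlap. The summed level of the 5 light chains did overlap, at 46.5 to 66.2 CPM per kilobase in MIA LPS libraries against 48.5 to 58.9 in MIA saline libraries, and at 44.0 to 59.4 in control LPS libraries against 52.6 to 64.7 in control saline libraries. That sum over the Slc3a2 level was 0.903 ± 0.405 after LPS against 1.82 ± 0.32 after saline in MIA offspring, and 0.752 ± 0.106 against 1.72 ± 0.37 in control offspring, with no overlap in either. These are shares of transcripts, and protein was not measured. They depend on the exon length used, and with principal isoforms the ratio of light chains to Slc3a2 was 0.586 after LPS against 1.18 after saline in MIA offspring and 0.495 against 1.11 in control offspring.

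**Figure D3:**
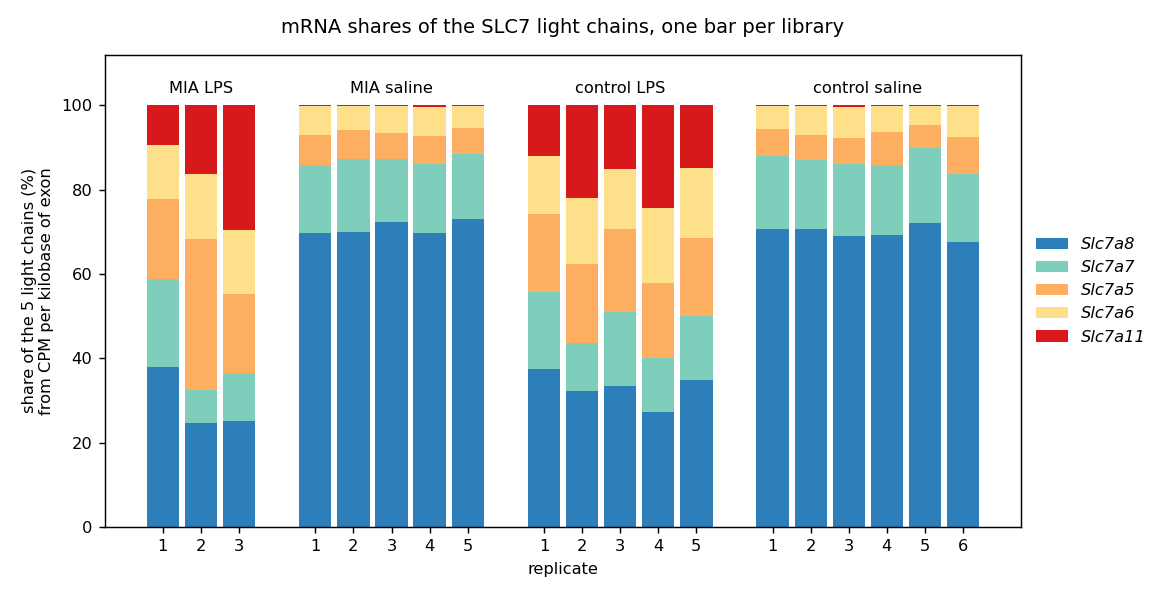
Share of each light chain in the summed CPM per kilobase of the 5 light chain genes, in percent, with 1 bar per batch 1 library grouped by offspring and treatment. Slc7a8 takes 67.5% to 73.0% of each saline bar and 24.7% to 38.0% of each LPS bar, and the Slc7a11 segment is visible after LPS.

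Whether MIA changed the transporters was compared after LPS, after saline and as a difference of the LPS responses. No member passed the test in any of the 3 comparisons, and neither did any of the 14741 genes (0% called in each by edgeR's quasi-likelihood test). Genes with an unadjusted p under 0.05 numbered 825 after LPS, 415 after saline and 491 for the difference of responses, and DESeq2 called 6 genes after saline and 0 in the other 2 comparisons, none of them a member. Slc7a5 was the only member with an unadjusted p under 0.05. Its level averaged 51.3 ± 21.7 CPM in MIA LPS libraries and 36.6 ± 4.8 CPM in control LPS libraries (SD, n = 3 and 5), a log2 difference of 0.49 with a 95% interval of 0.083 to 0.89 (adjusted p = 0.821 with edgeR), and 2 of 3 MIA LPS libraries were above all control LPS libraries. The LPS response of Slc7a5 differed by 0.62 between MIA and control offspring (interval 0.084 to 1.16, adjusted p = 1.0). Without MIA LPS replicate 2 these differences were 0.11 and 0.24.

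For the other members the intervals bound what these libraries could show. After LPS, MIA minus control was 0.24 (-0.51 to 0.99) for Slc7a11, 0.055 (-0.39 to 0.50) for Slc7a1, 0.0057 (-0.35 to 0.36) for Slc7a6, -0.12 (-0.40 to 0.16) for Slc7a8, -0.027 (-0.45 to 0.39) for Slc3a2 and 0.082 (-0.56 to 0.72) for Slc1a5, all on the log2 scale. Slc7a2 had the widest interval, -1.69 to 1.23 after LPS and -0.28 to 2.80 after saline. After saline, the interval of Slc7a8 was the narrowest, -0.31 to 0.16, and that of Slc7a11 spanned -0.99 to 0.98. MIA and control ranges overlapped for all 9 members after LPS and after saline, while 2.68% of all genes had ranges apart after LPS and 0.4% after saline.

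**Figure D4:**
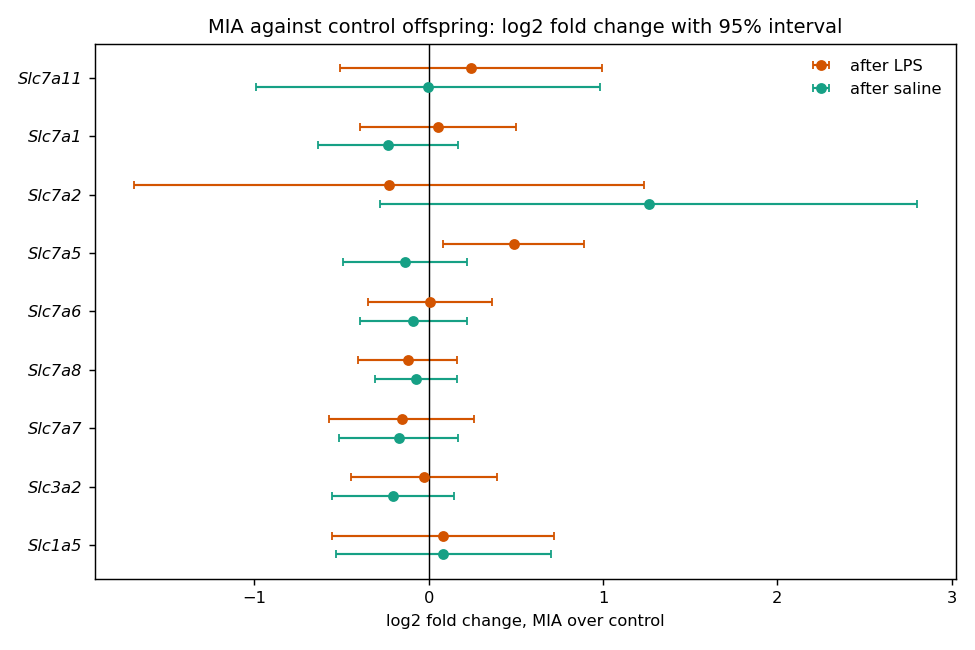
Log2 fold change of MIA over control offspring for each transporter gene, with the 95% interval, after LPS and after saline. All intervals cross 0 but that of Slc7a5 after LPS (0.083 to 0.89), whose adjusted p was 0.821.

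Genes that supply or use the transported amino acids were read from 8 lists, each set beside the medians and percentages over all genes given above. Each list held calls that were lost when 1 library was left out. Of 13 tested genes of other amino acid transporters at the plasma membrane, 6 were higher and 1 lower after LPS in MIA offspring (median log2 fold change 0.39) and 4 higher and 1 lower in control offspring (median 0.31). Slc43a2, the large neutral amino acid uniporter LAT4, rose by 1.02 ± 0.18 in MIA and 1.17 ± 0.15 in control offspring, and Slc38a2, the glutamine carrier SNAT2, by 0.73 ± 0.16 and 0.80 ± 0.13. Slc36a4 passed the test at 0.86 ± 0.33 in MIA offspring (adjusted p = 0.0411), but this rested on MIA LPS replicate 2, with 7.46 to 35.1 CPM after LPS against 7.63 to 11.2 CPM after saline and a log2 fold change of -0.034 without that library (adjusted p = 0.934). It had 0.40 ± 0.28 in control offspring (adjusted p = 0.254). Slc6a9, also counted as higher in MIA offspring only (adjusted p = 0.0319), was at 1.24 CPM after LPS against 0.214 CPM after saline there. The Slc6a9 call was lost without MIA LPS replicate 1 (adjusted p = 0.112) and without MIA saline replicate 2, 4 or 5 (adjusted p = 0.0574, 0.0705 and 0.0710). Slc1a3, the glutamate transporter GLAST and also an astrocyte marker, fell by 0.86 in MIA offspring (SE 0.17) and by 1.03 in control offspring (SE 0.14). Of 9 lysosomal amino acid and peptide transporters, 2 were higher and 2 lower in MIA offspring (median 0.11) and 3 higher and 3 lower in control offspring (median 0.17). Mfsd12, needed for cysteine import into lysosomes, rose by 1.63 ± 0.20 and 1.77 ± 0.17 in MIA and control offspring, and Slc15a3, a proton-coupled histidine and peptide transporter, by 1.14 ± 0.16 and 1.27 ± 0.13. Slc29a3, a lysosomal nucleoside transporter, was at 175 against 329 CPM in MIA and at 200 against 330 CPM in control offspring, and Slc38a9, an arginine sensor of the lysosome, at 33.4 against 64.0 CPM and at 48.3 against 70.3 CPM, and both fell in both kinds of offspring. Without MIA LPS replicate 1, the log2 fold change of Slc38a9 in MIA offspring was -1.44 (adjusted p = 2.10e-07), against -0.94 with it.

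On the cystine side, 11 of 20 tested genes of cystine use, glutathione and thioredoxin were higher and 3 lower in MIA offspring (median 0.85), and 10 were higher and 2 lower in control offspring (median 0.72). Gsr, glutathione reductase, was at 25.0 against 5.71 CPM in MIA and at 22.8 against 5.55 CPM in control offspring, a rise of 2.14 ± 0.24 and 2.03 ± 0.21. Prdx6, a peroxiredoxin that uses glutathione, rose by 2.08 ± 0.16 and 1.98 ± 0.14. Ggt5, a gamma-glutamyltransferase that acts on extracellular leukotrienes and glutathione conjugates, fell to 4.86 CPM in MIA LPS libraries, against 18.2 CPM in MIA saline libraries, and to 4.33 CPM in control LPS libraries, against 17.6 CPM in control saline libraries. Named after their values were seen, Nfe2l2, the gene of NRF2, rose by 1.11 ± 0.15 and 1.10 ± 0.13, and Gclc and Gclm, the 2 subunits of the enzyme that starts glutathione synthesis, did not rise. Gclc had -0.12 ± 0.20 and 0.0065 ± 0.16, and Gclm fell by 0.67 in MIA offspring (adjusted p = 0.0186) and had -0.31 ± 0.18 in control offspring (adjusted p = 0.17). The Gclm call in MIA offspring was lost without MIA LPS replicate 1 or 2 (adjusted p = 0.0587 and 0.0910). Without MIA LPS replicate 3, the MIA calls of G6pdx, Srxn1 and Chac1, counted as higher, were lost (adjusted p = 0.136, 0.226 and 0.0502). So was that of Txnip, counted as lower (adjusted p = 0.271).

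On the arginine side, 7 of 17 enzymes and carriers of arginine, nitric oxide and polyamines were higher and 2 lower in MIA offspring (median 0.55), and 6 were higher and 3 lower in control offspring (median 0.35). Odc1, the ornithine decarboxylase that opens polyamine synthesis, rose by 1.51 ± 0.27 and 0.78 ± 0.23, Azin1, which frees it from antizyme, by 1.30 ± 0.17 and 1.23 ± 0.14, and Srm, spermidine synthase, by 1.46 ± 0.25 and 1.52 ± 0.21, in MIA and control offspring. Ddah2 fell to 6.15 CPM in MIA LPS libraries, against 14.3 CPM in MIA saline libraries, and to 4.62 CPM in control LPS libraries, against 14.4 CPM in control saline libraries. Named after its values were seen, Arg1, arginase 1, averaged 11.5 CPM in MIA LPS libraries (2.10 to 20.9) against 0.502 CPM in MIA saline libraries, and 11.9 CPM in control LPS libraries (7.09 to 19.4) against 0.375 CPM in control saline libraries. Nos2, the inducible nitric oxide synthase, was too low to be tested, with 7 to 9 counts in MIA LPS libraries and 0 to 1 in MIA saline libraries, and 1 to 16 counts in control LPS libraries and 0 to 1 in control saline libraries.

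On the neutral amino acid side, the 20 genes of leucine sensing and branched-chain amino acid use were split, with 4 higher and 3 lower in MIA offspring (median 0.040) and 5 higher and 6 lower in control offspring (median -0.059). Sesn2, a leucine sensor that holds back mTORC1, rose by 1.30 ± 0.26 and 1.00 ± 0.22, Lars, the leucyl-tRNA synthetase, by 0.93 ± 0.25 and 0.90 ± 0.21, and Castor2 fell by 0.79 and 0.50. In MIA offspring Lars ranged from 12.8 to 51.7 CPM after LPS against 16.6 to 23.2 CPM after saline, so that 1 of 3 LPS libraries was below every saline library, and its call was lost without MIA LPS replicate 1 or 3 (adjusted p = 0.0754 and 0.0580). The Castor2 call in control offspring was lost without control LPS replicate 1 or 3 (adjusted p = 0.0742 and 0.0504). Bcat2 rose by 0.96 ± 0.26 and Sesn3 fell by 0.97 in control offspring, while in MIA offspring they had 0.62 ± 0.31 and -0.76 ± 0.35 and did not pass the test. Of 10 genes of glutamine and glutamate use, 5 were higher and 1 lower in both kinds of offspring (medians 0.30 in MIA and 0.27 in control). Glul, glutamine synthetase, fell to 269 CPM in MIA LPS libraries, against 561 CPM in MIA saline libraries, and to 238 CPM in control LPS libraries, against 551 CPM in control saline libraries. Got2, the mitochondrial aspartate aminotransferase, rose by 1.68 ± 0.16 and 1.46 ± 0.14, and Ppat, which spends glutamine in purine synthesis, by 1.14 ± 0.26 and 1.46 ± 0.22.

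GCN2 and ATF4 run the amino acid response when amino acids are short. Of 22 tested genes listed for it, 14 were higher and 2 lower in MIA offspring (median 0.93). In control offspring 12 were higher and 2 lower (median 0.75). This list also holds Eif2ak2 and Eif2ak3, genes of kinases other than GCN2. It shares Sesn2 with the leucine list and Chac1 with the cystine list. In MIA offspring the calls of Aldh18a1, Atf4, Chac1, Ddit4, Eif2ak4, Nupr1 and Psph, all higher, were each lost when 1 library was left out. Without MIA LPS replicate 1, Psph had an adjusted p of 0.346 and Aldh18a1 of 0.312. In control offspring the calls of Aldh18a1 and of Pycr1, which fell, were lost in this way. Psat1, of serine synthesis, was at 51.4 against 11.5 CPM in MIA and at 44.5 against 12.1 CPM in control offspring (2.16 ± 0.19 and 1.88 ± 0.16 on the log2 scale). Mthfd2, of mitochondrial one-carbon metabolism, rose by 2.48 ± 0.39 and 1.86 ± 0.33, and the transcription factor gene Cebpb by 1.72 ± 0.42 and 1.45 ± 0.36. In MIA offspring Cebpb ranged from 38.9 to 232 CPM after LPS against 33.8 to 59.8 CPM after saline, so that these ranges overlapped. Named after their values were seen, Atf4 rose by 0.65 ± 0.19 and 0.55 ± 0.16, and Asns, asparagine synthetase, by 2.52 ± 0.65 and 2.91 ± 0.58, while Ppp1r15a had -0.00085 and -0.093 and Cebpg fell by 0.75 and 0.61. Asns averaged under 2 in log2 CPM, the floor for list genes named by rule, so its fold rests on low levels. Without MIA LPS replicate 1, Atf4 in MIA offspring had an adjusted p of 0.0526. Of 8 tested tryptophan and kynurenine genes, 3 were higher and 0 lower in MIA offspring (median -0.18) and 3 higher and 1 lower in control offspring (median -0.042). The 3 that rose were Tiparp, a target of the aryl hydrocarbon receptor, at 2.05 ± 0.21 and 1.89 ± 0.18, Wars, the tryptophanyl-tRNA synthetase, at 0.95 ± 0.18 and 0.89 ± 0.15, and the receptor gene Ahr, named after its values were seen, at 14.9 CPM in MIA LPS libraries against 0.178 CPM in MIA saline libraries and at 13.1 CPM in control LPS libraries against 0.147 CPM in control saline libraries. The 1 that fell in control offspring, Il4i1, a secreted amino acid oxidase, had a log2 fold change of -0.85 there (adjusted p = 0.0288) and of -0.30 in MIA offspring (adjusted p = 0.551). Its call was lost without control LPS replicate 1 or 3 or control saline replicate 4 (adjusted p = 0.0601, 0.0588 and 0.0684). No gene of the 8 lists passed the test in the MIA comparisons.

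**Figure D5:**
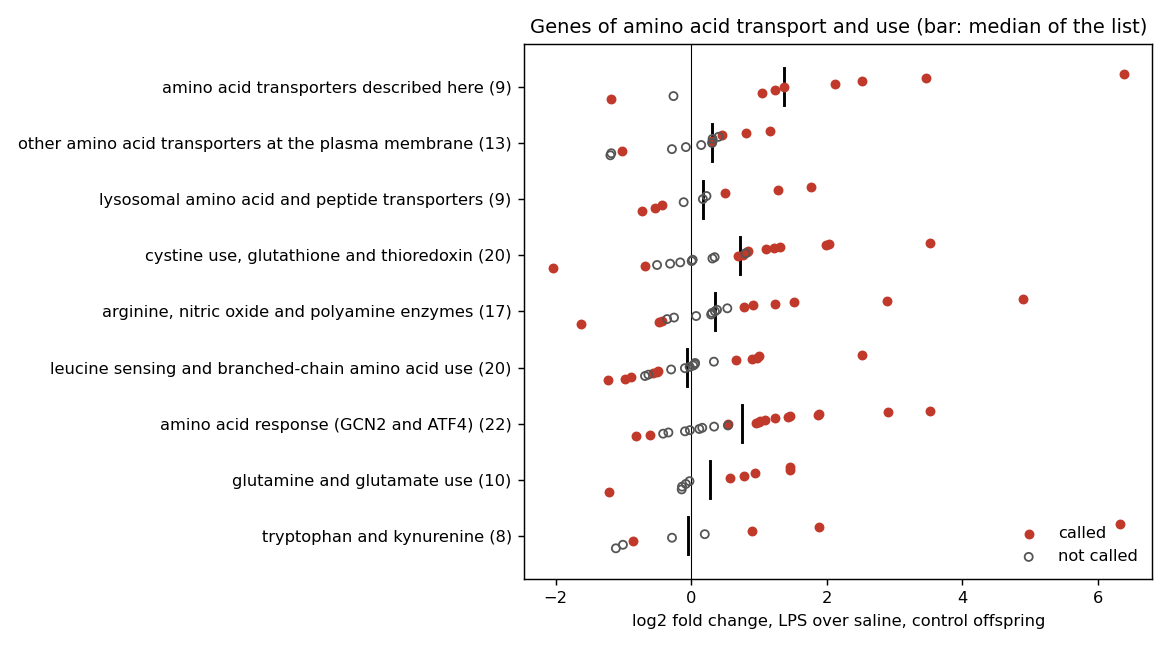
Log2 fold change of LPS over saline in control offspring for each tested gene of the 9 transporters and of the 8 lists, with called genes filled (adjusted p under 0.05), uncalled genes open and the list median as a bar. The number of genes tested is in brackets. Slc7a11 and Ahr lie farthest to the right, and the leucine list is centred near 0.

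The genes whose levels ran closest to each member over the 19 libraries were found by the root mean square difference of centred log2 CPM, a description with no test, over libraries that share the LPS contrast. Slc7a11 was closest to Ifi207 (0.74) and Hcar2 (0.76), against its own spread of 3.16 about its mean. Slc7a8 was closest to Herc2 and Asap1 (0.14 each, against 0.61), Slc3a2 to Hvcn1 (0.14) and Qars (0.17, against 0.63), and Slc7a6 to Acaca (0.15) and Luzp1 (0.20, against 0.66). Slc7a5 was closest to Ifih1 (0.23) and Hsd17b12 (0.25, against 0.83), Slc7a1 to Nme1 (0.33) and Prune2 (0.34, against 1.15), and Slc1a5 to Tnfaip2 (0.37) and Fmnl2 (0.45, against 1.32). Slc7a7 was closest to Coro1b and Hadha (0.17 each, against 0.32). Slc7a2 was closest to Plec (0.78) and Ptgfrn (0.83, against 1.63).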

How the data were processed

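Estimated counts per gene, which the authors deposited without normalization, were given for 21 libraries. Per the submitters' processing notes, the tools were RSEM, STAR and DESeq2, with no version or role stated. No genome build or strand setting is given in the sources used here. Per the labels' protocols, 5 ng of RNA went into each oligo-dT primed, modified Smart-Seq2 library, amplified over 9 PCR cycles. Of the deposited estimated counts, 6.27% were not whole, and all were rounded before tests. Symbols, exon lengths and coordinates came from GENCODE M21 on GRCm38, matched by identifier without its version (55141 of 55487). Promoter windows came from RefSeq on GRCm38.p6.

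Counts were scaled by TMM and tested with robust quasi-likelihood fits (edgeR 4.0.16 under R 4.3.3) of a mean for each group and a batch term, on 20 libraries with 15 residual degrees of freedom, after filterByExpr (minimum count 10, minimum total count 15), which kept 99.9% of the counts. The common biological coefficient of variation was 0.252. Genes were called at a Benjamini-Hochberg adjusted p under 0.05 over the 14741 genes tested. The standard error is the log2 fold change over the square root of F, and the intervals are 95%. Levels are TMM-scaled CPM, and summed marker levels are CPM of the total count. The script was tested on simulated data with 200 changed genes. Each library was counted once. Replicate pairs differed by more than sampling noise (the lowest chi-square per degree of freedom was 9.58). Because the spread may be partly technical, this check cannot tell repeat libraries of the same mice from libraries of separate mice. The members and lists were chosen with earlier results of these data known. Named list genes were, per LPS comparison, up to 3 called genes with the largest change among those averaging at least 2 in log2 CPM, and likeness was sought among genes averaging at least 3. Alternatives were RLE and upper quartile scaling, DESeq2 1.42.0, limma-voom (limma 3.58.1), no filter, no batch term, the excluded library kept in, blocks by replicate or ID number, and leaving out each library.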

Additional observations from a re-analysis of the deposited data

Results flagged for a closer look

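Within the 27 sets of 5 or 6 libraries checked, 1 gene in 1 group each, 6 had a library apart from the others by Dixon's test, which chance gives for about 1 in 20 sets. Slc7a1 was at 13.9 CPM in MIA saline replicate 5, Slc7a5 at 15.5 CPM and Slc7a7 at 31.5 CPM in MIA saline replicate 1, and Slc7a11 at 2.34 CPM in MIA saline replicate 4, each the highest of 5. Slc7a7 at 38.6 CPM and Slc7a8 at 233 CPM were the highest of 6 in control saline replicate 5. The call of no member in the LPS comparisons turned on leaving out replicate 5 of either saline group or MIA saline replicate 1 or 4, except Slc7a2 in MIA offspring without replicate 1 or 4.

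MIA LPS replicate 4, the single library of batch 2, was taken up by the batch term and so entered no comparison. In it 7 members were above all saline libraries. The share of all genes tested that lay above all saline libraries in it was not computed, so this count has no baseline beside it. Slc7a11 was at 522 CPM, against at most 2.78 CPM in saline libraries, Slc7a1 at 177 CPM against at most 14.1 CPM, and Slc7a2 at 7.80 CPM against at most 1.21 CPM. Slc3a2 was at 614 CPM against at most 157 CPM, Slc1a5 at 41.5 CPM against at most 4.55 CPM, Slc7a5 at 48.5 CPM against at most 18.9 CPM, and Slc7a6 at 59.8 CPM against at most 19.0 CPM. Slc7a8 was at 207 CPM, within the saline range and above every other LPS library. Its summed neutrophil markers were at 326.5 CPM, against at most 184 CPM in the other LPS libraries, its monocyte markers at 91.4 CPM against at most 79.0 CPM, and its lymphocyte markers at 23.0 CPM against at most 11.5 CPM. The part of these markers in its values was not tested. CT010467.1 held 58.1% of its counts. Batch, depth of detection (12285 genes) and group cannot be told apart in this library.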

How the results depend on the processing

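Under 29 alternatives, 7 or 8 members were called for LPS in MIA offspring and 8 in control offspring in each, and 0 in the 3 MIA comparisons. Leaving out 1 library gave 7 to 8 calls in MIA offspring. No called value changed sign. Slc7a2 in MIA offspring was the member whose call was lost, with no filter on low counts (adjusted p = 0.0782), with the replicate block (2.03, adjusted p = 0.0694) and without MIA saline replicate 1, 2 or 4 or MIA LPS replicate 3, and the cause was not tested. Folds moved by over 1.5 times for Slc7a2 in control offspring with limma-voom (4.34), with ID number as a random block (4.63), and without control saline replicate 1 (4.07) or 4 (4.13). With no batch term, so that MIA LPS replicate 4 entered the comparison, the values in MIA offspring were 3.10 for Slc7a1, 7.31 for Slc7a11, 2.62 for Slc7a2 and -0.75 for Slc7a8. Values that no fit called changed sign in 1 of 261 fits of a member for LPS in MIA offspring, 32 for the difference of responses, 13 for MIA after saline and 23 for MIA after LPS. Calls over all genes ran from 4814 to 6005 for LPS in MIA offspring and from 5063 to 7220 in control offspring. In the MIA comparisons, DESeq2 called 6 genes after saline, and some fits without 1 library or with the ID block called up to 4. The replicate block left 7 members called in MIA and 8 in control offspring. Deviations of libraries with the same replicate number correlated at -0.14 to 0.22 (median 0.030), over 0.1 in 5 of 24 pairs, so the numbers were not taken to pair the libraries. The labels also carry an ID number, of unstated meaning, that up to 3 libraries share. Each ID number occurs only in MIA or only in control offspring, and the main fit, MIA comparisons included, treated libraries sharing an ID number as independent. Libraries sharing it correlated at -0.018 to 0.205 (median 0.041, over 0.1 in 1 of 10 pairs), the fitted correlation within it was 0.0839, and with it as a random block 8 members were called in both LPS comparisons. Precision is limited by 3 MIA LPS libraries and, for Slc7a2 and Slc7a11 after saline, by low counts.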
